A study of Homo sapiens with 6 samples.

Results

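The 69 protein-coding genes whose symbols begin with EIF or EEF and a digit, the genes of the translation initiation and elongation factors, were compared in MDA-MB-231-DR cells with and without CYT treatment. They were taken by symbol and gene type from the deposited table of 58302 genes, of which 19817 are protein-coding. The rule itself uses no measured value. A further 139 genes with such symbols are of other types, 127 of them processed pseudogenes, and were left out.

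MDA-MB-231 is a triple-negative human breast cancer cell line, and MDA-MB-231-DR is its doxorubicin-resistant derivative. The 3 control and 3 CYT libraries were all made from this resistant line, and the CYT cells had received cyperotundone, a compound of sedge. The study's methods keep this line in medium with a little doxorubicin, which control and CYT cells would then share. The dose and time of CYT behind these libraries are not given in the sources used here. The labels number the replicates of each group but do not say that they are separate cultures, so the p-values measure the spread between these libraries, which may be technical. The resistant derivative is a selected population of 1 parental line. The markers VIM, CD44, EGFR, AXL and CAV1 of this mesenchymal line were present in every library, with a summed level of 358 to 420 FPKM in control and 176 to 203 FPKM in CYT libraries. The summed level of ESR1, PGR, CDH1 and EPCAM was 0.0653 to 0.165 FPKM in control and 0.203 to 0.254 FPKM in CYT libraries.

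Protein synthesis starts when the initiator tRNA, carried by eIF2, joins the small ribosomal subunit together with eIF3, eIF1, eIF1A and eIF5. The eIF4F proteins bring the capped mRNA, and eIF5B joins the large subunit. During elongation eEF1A delivers aminoacyl-tRNA, and eEF2 moves the ribosome along the mRNA. Phosphorylation of eIF2 by its kinases blocks eIF2B and lowers initiation, while mTORC1 releases eIF4E from the 4E-BP repressors. Many mRNAs of this machinery begin with a C followed by a run of pyrimidines, the terminal oligopyrimidine (TOP) motif, which couples their translation to mTORC1.

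The start of the mRNA is the sequence feature for which these genes are known, so the RefSeq starts (GRCh38.p14) of 55 of the 69 genes were read. The search was for a C followed by at least 4 bases that are each C or T, on the transcribed strand only and exactly at the annotated start. It found 12 of the 55 genes (21.8%), and 1429 of 35116 promoters in the RefSeq table (4.07%). Within 10 bases of the start, the contrast was smaller, with 25 of the 55 genes (45.5%) and 11755 of the 35116 promoters (33.5%). Each window below holds 20 bases before the start and 10 from it, with the pyrimidine run in capitals where the start opens with one. The first 4 are the genes with such a run that were lower in CYT libraries. EEF1A1 has a run and was not called, and the last 3 genes have none.
EEF2: tgagtgttgacgtcagcgttCTCTTCCgcc
EIF4B: cgtgattgcctcatccgggtCTTTTgcgtt
EIF3D: ccgctgcgcgcgcatgtttcCTCTTTTCCT
EIF3M: gcgtcgcgcggcccagttccCTTTTCCggt
EEF1A1: cagtagtcgccgtgaacgttCTTTTTCgca
EIF2B3: gcgccattgggctgtcagtcagaggcggcg
EIF4A3: cgtctgttctcggcagcggcacagcgaggt
EIF4E: cccccccttctggagcggttgtgcgatcag
The windows lie at chr19:3985454-3985483 on the minus strand (EEF2), chr12:53006436-53006465 on the plus strand (EIF4B), chr22:36529157-36529186 on the minus strand (EIF3D) and chr11:32583811-32583840 on the plus strand (EIF3M). EEF1A1 lies at chr6:73521023-73521052, EIF2B3 at chr1:44986586-44986615, EIF4A3 at chr17:80147119-80147148 and EIF4E at chr4:98929124-98929153, all on the minus strand.

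Summed gene counts were 14050849 to 17770102 in control and 13056270 to 14106017 in CYT libraries. The translation factor genes took 1.93% to 2.13% of the counts of a control library and 1.41% to 1.93% of those of a CYT library. Without EEF1A1 these shares were 1.47% to 1.64% and 1.12% to 1.18%. Libraries of the groups also differed elsewhere. Antisense genes took 0.253% to 0.291% of control and 0.553% to 0.573% of CYT counts, and the mitochondrial ribosomal RNA MT-RNR2 took 0.124% to 0.167% and 1.5% to 1.57%. CYT replicate 2 stood apart from its group, with a correlation of 0.904 to 0.905 with the other CYT libraries across genes. The part of these differences in the results below was not tested. In bulk RNA scaled to a common total, a fall in a gene's RNA per cell cannot be told apart from a rise of other RNA.

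After CYT treatment, more translation factor genes were lower than higher. Of the 66 genes that passed the filter on low counts, 12 (18.2%) were called lower and 2 (3.03%) higher at an adjusted p under 0.05 in edgeR's quasi-likelihood test. Among all 15572 genes tested, 12.9% were called lower and 15.7% higher. Among the 12755 protein-coding genes tested, the class these genes belong to, 14.6% were called lower and 12.5% higher. The genes called lower were EEF1A2, EIF4EBP1, EIF4B, EIF2B3, EEF2, EIF3A, EEF2K, EIF3E, EIF3M, EIF3D, EIF4H and EIF3L, and those called higher were EIF4A3 and EEF1AKMT3. The log2 fold change was below 0 for 49 of the 66 genes, with a median of -0.39, against 0.01 over all genes and -0.07 over protein-coding genes. In 25 of the 66 genes (37.9%) every CYT library lay below every control library, and in 5 (7.58%) every one lay above. Over all genes tested these shares were 22.7% and 23.4%, and over protein-coding genes 25.2% and 19.6%. The 3 genes that did not pass the filter were EIF1AY, EIF4E1B and EIF4EBP3.

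With the replicate number as a block, 23 genes were called lower and 4 higher, against a background of 19.8% and 20.0% of all genes. The 14 calls above were kept. Without CYT replicate 2, 22 genes were called lower and 3 higher, against 17% and 18.6% of all genes. The calls of EEF1A2, EIF4B, EIF2B3, EEF2, EIF3A, EEF2K and EIF3M were kept in all 19 alternative fits, and the other calls were lost in at least 1 fit that left out a library.

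**Figure D1:**
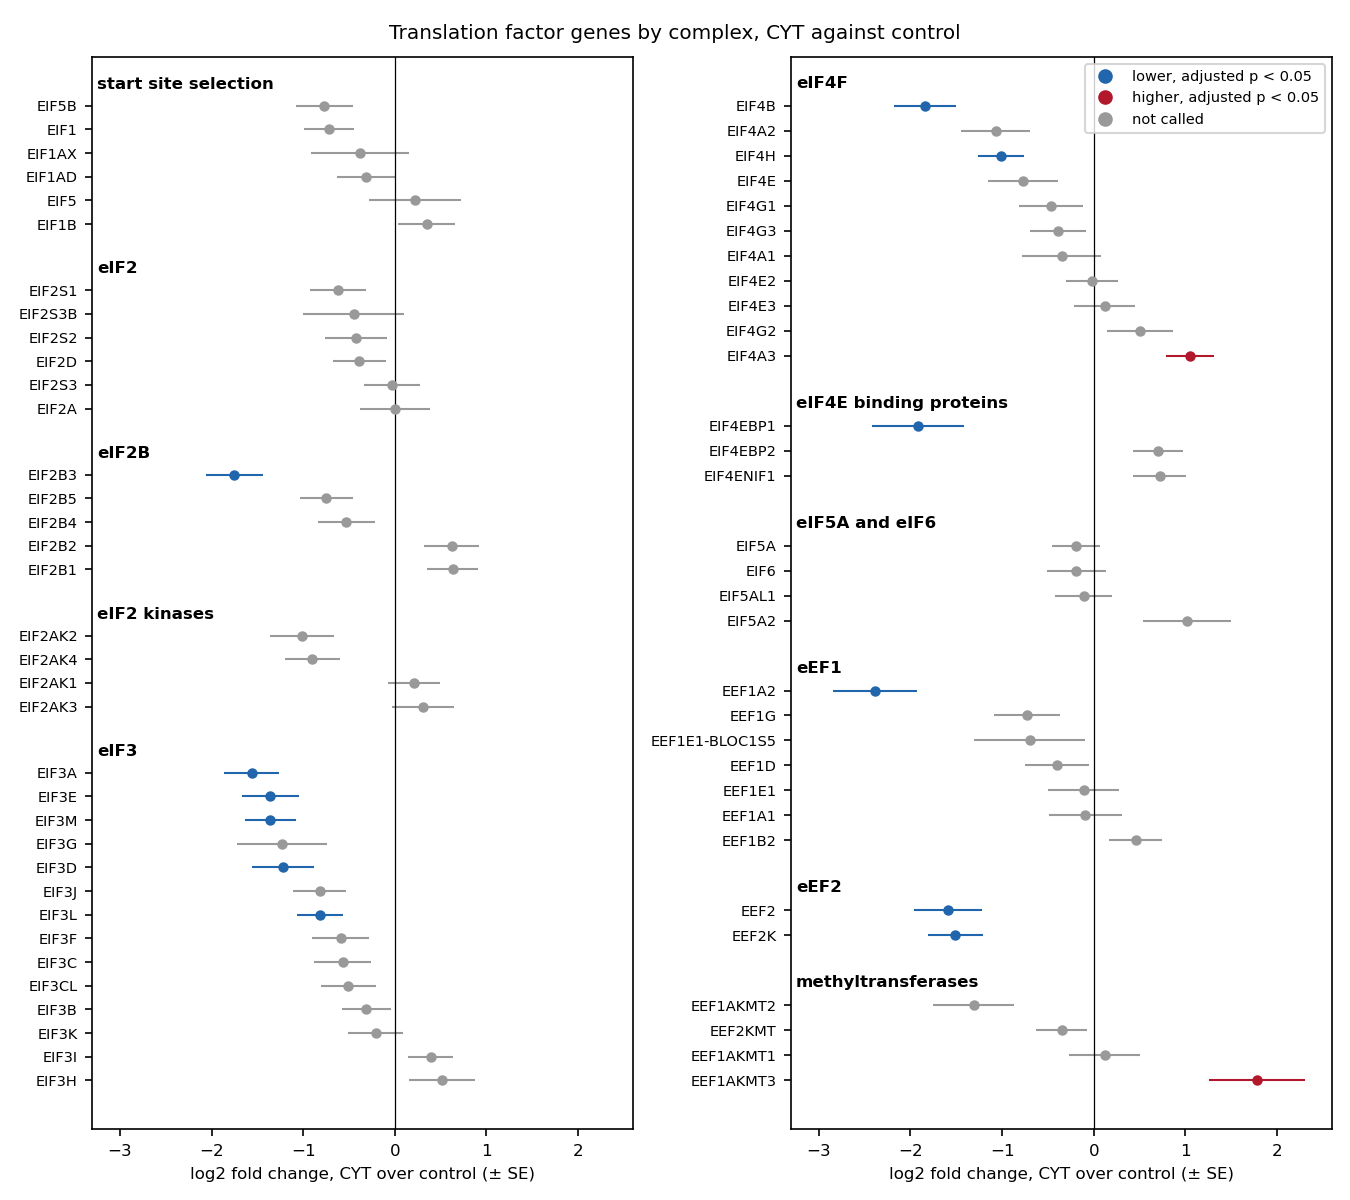
Log2 fold change of CYT over control (x axis, bars are ± 1 standard error) of the 66 tested translation factor genes, in groups by textbook role. Blue marks the 12 genes called lower and red the 2 called higher. The eIF3 group has 5 blue points, and both genes of the eEF2 group are blue.

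The group with the most lower genes was eIF3, which is also the largest group. This complex of many subunits holds the small ribosomal subunit and recruits the other factors. Of its 14 tested genes 5 (35.7%) were lower in edgeR's test, against 12.9% of all genes, with a median log2 fold change of -0.71. DESeq2 called 7 lower, against 15.1% of all genes, and edgeR with the block 7, against 19.8%. At an unadjusted p under 0.05, 7 of the 14 genes differed, against 40.9% of all genes.
EIF3A encodes the scaffold subunit of the complex. Its level was 10.5, 12.6 and 9.61 FPKM in the control libraries and 3.45, 5.05 and 2.83 FPKM in the CYT libraries. The groups were apart, and the gene fell by 1.56 on the log2 scale (SE, the standard error, 0.30, adjusted p = 0.00497).
EIF3E and EIF3M encode core subunits. EIF3E was at 35.1, 52.4 and 40.4 FPKM in control and at 12.2, 23.6 and 15 FPKM in CYT libraries (log2 fold change -1.36 ± 0.31, adjusted p = 0.0108). EIF3M was at 17.1, 25.2 and 19.1 FPKM in control and at 8.34, 9.56 and 6.47 FPKM in CYT libraries (log2 fold change -1.36 ± 0.28, adjusted p = 0.00655). In both genes the highest CYT library stayed under the lowest control library. The call of EIF3E was lost without CYT replicate 1 (adjusted p = 0.0514), and that of EIF3M in no alternative.
EIF3D, the subunit that can bind the cap itself, was at 62.3, 41.1 and 59.0 FPKM in control and at 28.8, 17.4 and 24.8 FPKM in CYT libraries. It fell by 1.22 (log2, SE 0.34, adjusted p = 0.0243), and the call was lost without control replicate 1, control replicate 3 or CYT replicate 3, with an adjusted p of up to 0.0823. EIF3L, another core subunit gene, was at 63.7, 82.9 and 73.3 FPKM in control and at 43.1, 47.1 and 35.8 FPKM in CYT libraries (log2 fold change -0.82 ± 0.25, adjusted p = 0.0371). Its call was the least stable of the eIF3 genes. When libraries were left out in turn, it was kept in 1 of 6 fits, the one without CYT replicate 2. It was also lost under upper-quartile normalization, without the filter, under a floor of 5 CPM on average and among protein-coding genes only. The adjusted p reached 0.13.

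The other eIF3 genes were not called. EIF3G, an RNA-binding subunit, had a log2 fold change of -1.23 with a wide error of 0.49 (adjusted p = 0.088, and 0.00679 with the block). Its control libraries ran from 12.6 to 37.2 FPKM. EIF3J, the loosely bound subunit, had a log2 fold change of -0.82 (adjusted p = 0.0618, and 0.0228 with the block). EIF3F, EIF3C, EIF3CL, EIF3B and EIF3K lay between -0.59 and -0.21. EIF3I and EIF3H were the only eIF3 genes above 0, at 0.39 and 0.52. EIF3I, the most abundant eIF3 gene per length, was at 202, 231 and 199 FPKM in control and at 255, 293 and 290 FPKM in CYT libraries. Each of its CYT libraries was above each control library, though the gene was not called (adjusted p = 0.273). The summed level of the 14 genes was 656 to 695 FPKM in control and 562 to 601 FPKM in CYT libraries, a ratio of means of 0.851 (exact permutation p = 0.1, two-sided, the smallest p that 3 against 3 allows). EIF3CL is a near-identical copy of EIF3C, and its count was 1.03 to 1.13 times that of EIF3C in every library, so the values of this pair are uncertain.

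The eIF4F group, taken with its helpers and paralogues, had 2 genes lower and 1 higher of 11 tested, with a median of -0.39, against 12.9% and 15.7% of all genes. With the block, 4 were called lower and 1 higher, against 19.8% and 20.0%. The lower genes were both cofactors of the eIF4A helicase. EIF4B, at 25.5, 17.9 and 23.8 FPKM in control libraries, was at 6.29, 4.75 and 7.84 FPKM in CYT libraries. It fell by 1.84 (log2, SE 0.34, adjusted p = 0.00429), a 3.59-fold lower level. EIF4H was at 85.4, 102 and 85.2 FPKM in control and at 47.3, 44.8 and 44.2 FPKM in CYT libraries (log2 fold change -1.01 ± 0.25, adjusted p = 0.0159). The groups of both genes were apart, but the call of EIF4H was lost without CYT replicate 1 or CYT replicate 3, with an adjusted p of up to 0.0583.
EIF4A3 moved the other way. It is related to the eIF4A helicases, but its protein belongs to the exon junction complex that marks spliced mRNA. It was at 39.9, 38.0 and 34.5 FPKM in control and at 79.3, 81.5 and 75.7 FPKM in CYT libraries, with the groups apart. It rose by 1.05 (log2, SE 0.26, adjusted p = 0.0143). Its call was lost without control replicate 3 or CYT replicate 1, with an adjusted p of up to 0.075.

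EIF4E, the cap-binding protein, was at 1.52, 3.10 and 1.68 FPKM in control and at 0.987, 1.90 and 0.865 FPKM in CYT libraries. In each group replicate 2 was the highest, and the groups overlapped. The log2 fold change was -0.77 ± 0.38 and the gene was not called (adjusted p = 0.156), while with the replicate block it was called lower (adjusted p = 0.0279). EIF4A1, the main eIF4A helicase gene, was at 22.4, 6.72 and 14.8 FPKM in control and at 12, 12.9 and 11 FPKM in CYT libraries (log2 fold change -0.35 ± 0.43, adjusted p = 0.569). Its control libraries spread over more than the whole CYT range. The annotation holds a read-through gene, SENP3-EIF4A1, on the same exons, and its counts were 0, 3535 and 4649 in control and 614, 697 and 613 in CYT libraries. Control replicate 1, with the highest EIF4A1 value, is the library with 0 counts of the read-through gene. When the read-through gene and the pseudogenes of EIF4A1 were added to it, the log2 fold change was -0.74 ± 0.31 (adjusted p = 0.101). This sum was chosen after seeing the data. Its paralogue EIF4A2 was at 13, 17.4 and 20.2 FPKM in control and at 5.72, 13.8 and 5.44 FPKM in CYT libraries, with a log2 fold change of -1.07 (adjusted p = 0.06, and 0.0176 with the block). The scaffold genes EIF4G1 (-0.47), EIF4G3 (-0.39) and EIF4G2 (0.51), and the cap-binding paralogues EIF4E2 (-0.02) and EIF4E3 (0.12), were not called. EIF4G2 was called higher with the correction for GC content and length (adjusted p = 0.048). Its log2 fold change ran from 0.04 to 0.76 when each library was left out in turn. EIF4G1 was at 29, 19.5 and 25.7 FPKM in control and at 22.0, 11.6 and 20.3 FPKM in CYT libraries. EIF4G2 was at 13.6, 18.2 and 15.1 FPKM in control and at 18.3, 37.4 and 13.3 FPKM in CYT libraries. The groups of both scaffold genes overlapped, with CYT replicate 2 the lowest for EIF4G1 and the highest for EIF4G2. EIF4G3 was at 2.46, 2.45 and 2.27 FPKM in control and at 1.8, 2.57 and 1.29 FPKM in CYT libraries. EIF4E2 was at 4.91, 6.46 and 6.24 FPKM in control and at 6.63, 5.30 and 5.55 FPKM in CYT libraries. The low EIF4E3 was at 0.296, 0.533 and 0.383 FPKM in control and at 0.448, 0.533 and 0.350 FPKM in CYT libraries. The groups of these 3 genes overlapped as well.

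The 4E-BP genes encode repressors that hold eIF4E away from the scaffold. EIF4EBP1 was at 166, 54.4 and 153 FPKM in control and at 34.2, 21.8 and 44.2 FPKM in CYT libraries. It fell by 1.92 (log2, SE 0.50, adjusted p = 0.0178). The call was lost without control replicate 1, control replicate 3 or CYT replicate 1, with an adjusted p of up to 0.0657. Its paralogue EIF4EBP2 was at 18.7, 27.5 and 21.3 FPKM in control and at 41.6, 39.3 and 30.1 FPKM in CYT libraries, all above the control libraries. It was not called (log2 change 0.70 ± 0.27, adjusted p = 0.0803), and was called higher with the block (adjusted p = 0.0473). EIF4ENIF1, which encodes the eIF4E transporter 4E-T, had a log2 fold change of 0.72 (adjusted p = 0.0931), also with the groups apart. It was called higher in 3 alternatives, with a lowest adjusted p of 0.0112. These were the fit without CYT replicate 2 and the correction for GC content and length, alone or with the block.

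**Figure D2:**
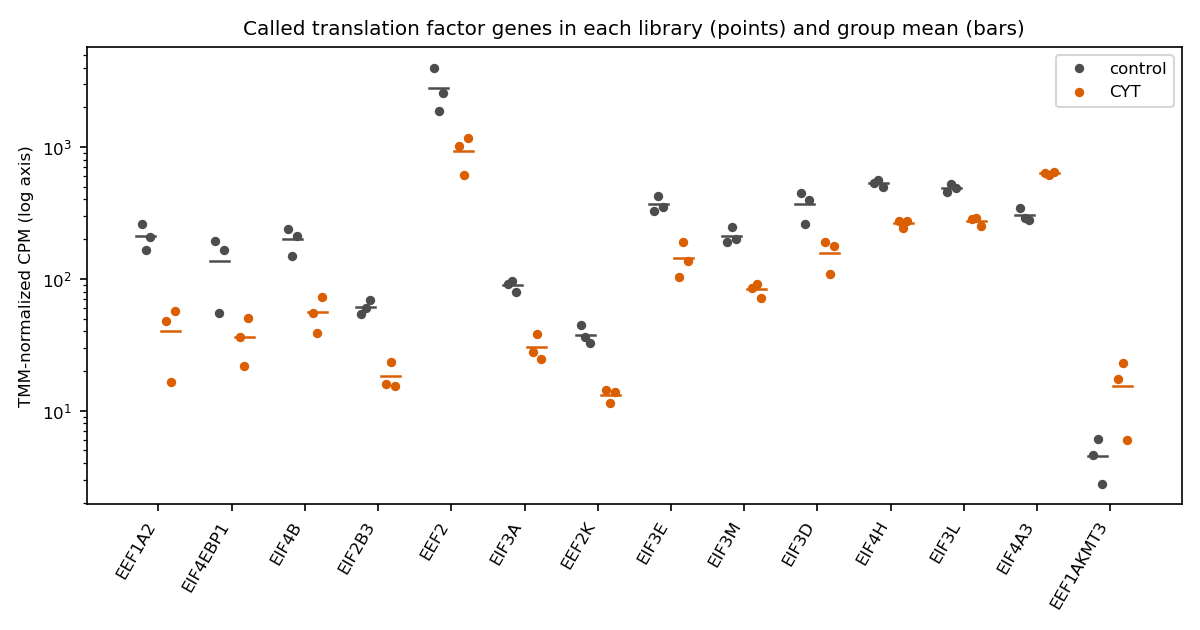
TMM-normalized CPM (y axis, log scale) of the 14 called translation factor genes in each of the 3 control (grey) and 3 CYT (orange) libraries, with bars at group means. The groups are apart in 13 genes and overlap in EEF1AKMT3.

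Elongation factor genes were the 3 most abundant of the family in control libraries, and of these EEF2 was called lower. EEF2, the translocase gene at chr19:3976056-3985469, was at 691, 368 and 470 FPKM in control and at 190, 123 and 204 FPKM in CYT libraries. In the control group it ranked 1 of the 69 genes by mean level, with 16.0% of their summed FPKM, and in the CYT group it ranked 5, with 7.28%. These ranks use each gene's own count, and EEF1A1, whose pseudogenes can take its reads, ranked 3 and 1. EEF2 fell by 1.59 (log2, SE 0.37, adjusted p = 0.0115), a 3.01-fold lower level. EEF2K, the gene of the kinase that inactivates eEF2, was at 4.43, 4.09 and 3.45 FPKM in control and at 1.54, 1.32 and 1.39 FPKM in CYT libraries, and fell by 1.51 (SE 0.30, adjusted p = 0.00541). Both the factor and its kinase were therefore lower, with the groups apart, and both calls were kept in every alternative.
EEF1A2 had the largest fall among the called genes. It is the tissue-restricted paralogue of EEF1A1 and was abundant in this line, at 120, 87.0 and 103 FPKM in control libraries. In CYT libraries it was at 23.9, 8.82 and 26.6 FPKM, lowest in CYT replicate 2. It fell by 2.39 (log2, SE 0.46, adjusted p = 0.00484), a 5.23-fold lower level.
EEF1A1, the general gene of the tRNA-delivering factor, was at 224, 422 and 435 FPKM in control and at 242, 589 and 213 FPKM in CYT libraries (log2 fold change -0.09 ± 0.40, adjusted p = 0.891). The groups overlapped fully, with the highest value in CYT replicate 2. Near-identical pseudogenes can take reads of this gene, and its own count was 36.7% to 54.3% of the count summed with its pseudogenes. With those added the log2 fold change was -0.37 ± 0.34 (adjusted p = 0.449).
The exchange factor genes EEF1G (-0.73), EEF1D (-0.40) and EEF1B2 (0.46) were not called, nor were EEF1E1 (-0.11) and the read-through gene EEF1E1-BLOC1S5 (-0.70). EEF1G was called lower with the block (adjusted p = 0.0462).

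The next steps are the choice of the start codon and the delivery of the initiator tRNA. None of the 6 start-site genes, the 6 genes of the eIF2 group or the 4 eIF2 kinase genes was called in edgeR's test. At an unadjusted p under 0.05 these groups held 2, 0 and 2 genes, DESeq2 called 0, 0 and 2 lower, and limma on log2(FPKM + 1) called 0 in each. The backgrounds of 40.9% and 15.1% given for eIF3 apply here too. EIF1, which keeps the scanning ribosome from wrong codons, was at 36.6, 52.1 and 37.7 FPKM in control and at 28.5, 26.2 and 22.6 FPKM in CYT libraries (log2 fold change -0.72 ± 0.27, adjusted p = 0.0684, and 0.0427 with the block). EIF5B, the subunit-joining GTPase, had a log2 fold change of -0.77 (adjusted p = 0.0898, and 0.0279 with the block). EIF1AX, the eIF1A gene that promotes scanning, was at -0.38, EIF5, the GTPase activator of eIF2, at 0.22, and EIF1AD, whose protein has an eIF1A-like domain, at -0.31. The eIF2 subunit genes EIF2S1, EIF2S2 and EIF2S3 were at -0.62, -0.42 and -0.03. EIF2S1 and EIF2S2 were called lower without CYT replicate 2 (adjusted p = 0.0148 and 0.0411) and with the correction for GC content and length (adjusted p = 0.016 and 0.0191), and EIF1AX without CYT replicate 2 (adjusted p = 0.0364) and with that correction and the block together (adjusted p = 0.0237). EIF2S3B, a retrocopy of EIF2S3, was at -0.45. EIF2A and EIF2D, which encode separate proteins that can act in initiator tRNA delivery, were at 0.00 and -0.39. Among the kinase genes, EIF2AK2 (PKR) and EIF2AK4 (GCN2) were at -1.01 and -0.90, each with the groups apart and an adjusted p of 0.0541 and 0.0506. With the block they were called lower (adjusted p = 0.00931 and 0.0173). EIF2AK1 (HRI) and EIF2AK3 (PERK) were at 0.21 and 0.31 and were not called.

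The subunit genes of eIF2B, the exchange factor that recharges eIF2, spread in both directions. EIF2B3, the gamma subunit, was at 10.6, 13.5 and 14.6 FPKM in control and at 3.36, 5.32 and 3.06 FPKM in CYT libraries, a fall of 1.75 (log2, SE 0.31, adjusted p = 0.00342) and the smallest adjusted p of all 66 genes. EIF2B5, the catalytic subunit, was at -0.75 (adjusted p = 0.0831, and 0.042 with the block), and EIF2B4 at -0.53 (adjusted p = 0.234). EIF2B1 and EIF2B2 lay on the other side, at 0.63 and 0.62 (adjusted p = 0.114 and 0.152). EIF2B1 was called higher with the correction for GC content and length (adjusted p = 0.0395). EIF2B2 was called higher without CYT replicate 2 and with that correction and the block together (lowest adjusted p = 0.0329). The control libraries of EIF2B1 held 16.5 to 19.3 FPKM and its CYT libraries 22.7 to 35.4 FPKM, without overlap. The summed level of the 5 genes was 57.0 to 62.6 FPKM in control and 54.9 to 63.6 FPKM in CYT libraries, a ratio of means of 0.999.

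The remaining genes are those of eIF5A and eIF6 and of the methyltransferases of the elongation factors. EIF5A, whose hypusine-bearing protein acts in elongation and termination, and EIF6, which keeps the large subunit apart, were at -0.19 each and were not called. EIF5AL1, a retrocopy of EIF5A, was at -0.11. EIF5A was at 111, 131 and 106 FPKM in control and at 102, 92.3 and 113 FPKM in CYT libraries, with overlap. EIF5A2, the paralogue of EIF5A, was at 1.77, 4.2 and 1.78 FPKM in control and at 3.51, 9.40 and 3.16 FPKM in CYT libraries, with replicate 2 high in both groups. It was not called (log2 change 1.02 ± 0.48, adjusted p = 0.137), and was called higher with the block (adjusted p = 0.0123). EEF1AKMT3, which encodes a lysine methyltransferase of eEF1A, rose by 1.78 (log2, SE 0.52, adjusted p = 0.0291). Its level was low, at 0.651, 0.988 and 0.424 FPKM in control and at 2.66, 3.8 and 0.864 FPKM in CYT libraries. CYT replicate 3 lay within the control range, so the groups overlapped. The call was lost without control replicate 1, control replicate 3, CYT replicate 1 or CYT replicate 2, and in both limma fits, with an adjusted p of up to 0.11. Its exons overlap METTL1 on the other strand and AC025165.3 on the same strand, and AC025165.3 was called lower (log2 fold change -1.63), with counts of 48, 68 and 63 in control and 11, 17 and 20 in CYT libraries. METTL1 was not called (-0.85). How reads of the shared exons were assigned is not given in the sources used here. EEF1AKMT2, another eEF1A methyltransferase gene, was at -1.31 (adjusted p = 0.0513, and 0.00925 with the block). EEF1AKMT1 (0.12), a further one, and EEF2KMT (-0.35), which encodes a methyltransferase of eEF2, were not called.

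**Figure D3:**
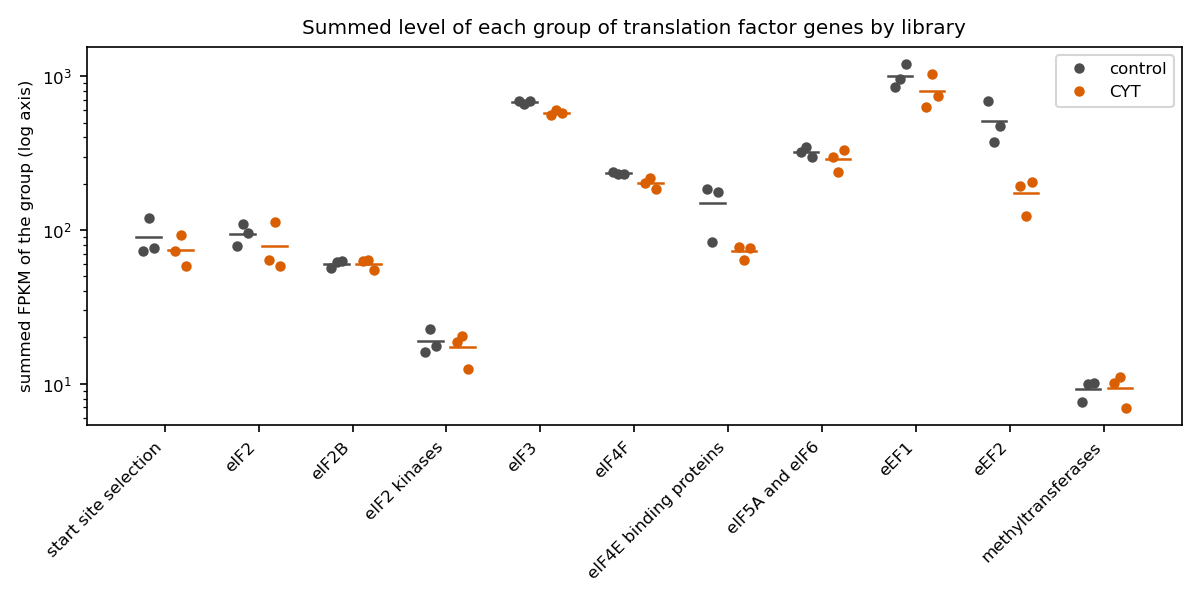
Summed FPKM (y axis, log scale) of the genes of each role group in each control (grey) and CYT (orange) library, with bars at group means. The CYT libraries lie below the control libraries in the eIF3, eIF4F, eIF4E binding protein and eEF2 groups and overlap with them in the other groups.

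Summed over all 69 genes, the level was 2980 to 3340 FPKM in control and 2190 to 2590 FPKM in CYT libraries, a ratio of means of 0.744 (exact permutation p = 0.1, two-sided, the smallest possible). The eEF2 group had the lowest ratio of the groups, 0.338, followed by the 4E-BP group with 0.49. The ratio was 0.862 for the eIF4F group and 0.803 for the eEF1 group, whose libraries overlapped.

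Related genes were also compared within each library, since such a ratio does not depend on how libraries are scaled to each other. Of 10 ratios of FPKM, 4 had groups that were apart, each with an exact two-sided permutation p of 0.1, the smallest possible, and 0.25 after adjustment over the 10 ratios. EIF1B over EIF1 was 0.434, 0.523 and 0.402 in control and 0.987, 0.980 and 0.928 in CYT libraries, a difference of 1.10 on the log2 scale. EIF1B itself was at 15.9, 27.3 and 15.1 FPKM in control and at 28.1, 25.7 and 20.9 FPKM in CYT libraries, and the groups overlapped. The paralogues were at nearly equal levels in CYT libraries. EIF4EBP2 over EIF4EBP1 was 0.113, 0.505 and 0.139 in control and 1.22, 1.81 and 0.682 in CYT libraries, a log2 difference of 2.52. In control libraries EIF4EBP1 was the more abundant, whereas EIF4EBP2 exceeded it in 2 of the 3 CYT libraries. EEF1A2 over EEF1A1 was 0.537, 0.206 and 0.237 in control and 0.0988, 0.0150 and 0.125 in CYT libraries, and its log2 value fell by 2.38. The limit on the count of EEF1A1 holds for this ratio too. EIF4E3 over EIF4E was 0.194, 0.172 and 0.228 in control and 0.454, 0.281 and 0.405 in CYT libraries, a log2 difference of 0.92. The other 6 ratios overlapped. Their log2 differences were -1.01 for EIF4A2 over EIF4A1, -1.03 for EIF4EBP1 over EIF4E, 0.76 for EIF4E2 over EIF4E, 0.92 for EIF4G2 over EIF4G1, 0.09 for EIF4G3 over EIF4G1 and 1.17 for EIF5A2 over EIF5A, with an exact permutation p of 0.2 to 1.0. The ratio with EIF4A1 is uncertain, since its read-through gene had uneven counts in control libraries (0, 3535 and 4649).

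**Figure D4:**
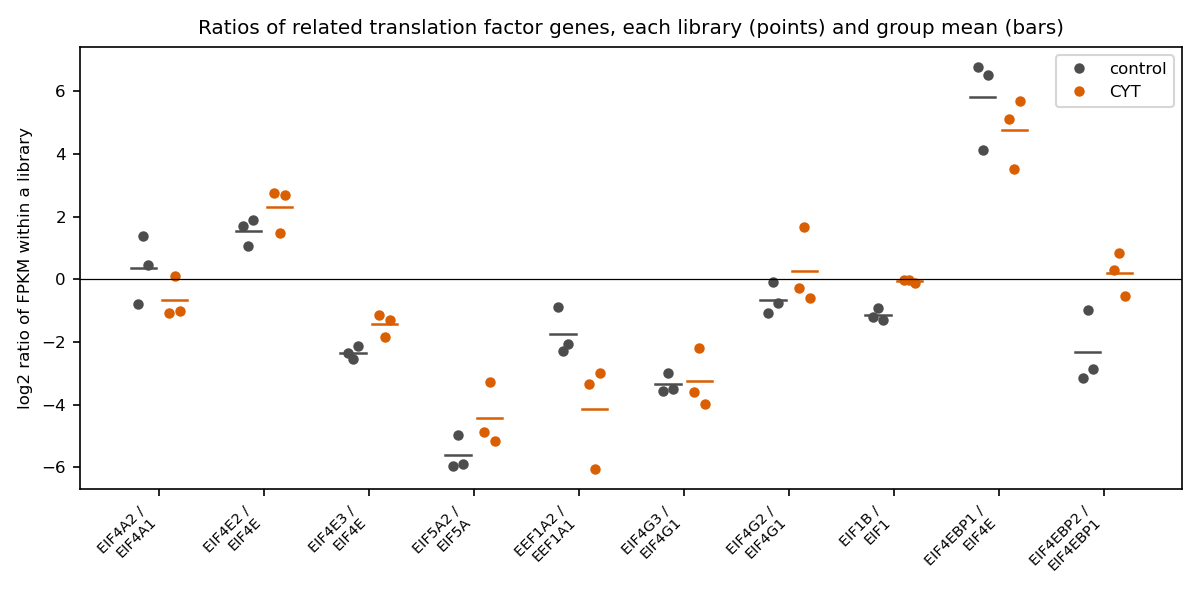
Log2 ratio of the FPKM of 10 pairs of related genes (x axis) within each control (grey) and CYT (orange) library, with bars at group means. EIF4E3 over EIF4E, EEF1A2 over EEF1A1, EIF1B over EIF1 and EIF4EBP2 over EIF4EBP1 show no overlap of the groups.

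By start sequence, the 12 tested genes with a pyrimidine run exactly at the RefSeq start had 4 lower in edgeR's test and a median log2 fold change of -0.52. The background for the counts of this paragraph is 12.9% of all genes called lower and 15.7% higher, and 19.8% and 20.0% with the block. The 40 tested genes of the table without it had 3 lower, 1 higher and a median of -0.33. With the replicate block, 5 of the 12 and 12 of the 40 were called lower. The lower genes with a run were EEF2, EIF4B, EIF3D and EIF3M, whose starts are printed above. A second grouping took the 9 genes known as TOP mRNAs from textbooks (EEF1A1, EEF1B2, EEF1D, EEF1G, EEF2, EIF3E, EIF3F, EIF3H and EIF4B). Of these 3 were lower, with a median of -0.59, against 9 lower and 2 higher of the other 57 genes, with a median of -0.39. With the block, 4 of the 9 and 19 of the 57 were lower. The 2 groupings differ in part. Of the 6 textbook genes whose RefSeq start was read, 4 have a run there, while EEF1B2 and EEF1G have none within 10 bases. The cytosolic ribosomal protein genes, the largest class of TOP mRNAs, had 1 lower and 2 higher of 79 tested, with a median of -0.15, and 5 lower and 8 higher with the block.

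Genes that act on the same factors were described from lists by role. The counts of called genes in all these lists stand against 12.9% of all genes called lower and 15.7% higher, and against 19.8% and 20.0% with the block. Eukaryotic eEF2 carries diphthamide, a modified histidine made by the DPH proteins, and 3 of the 6 tested genes of that pathway were lower. DPH6 was at 0.472, 0.761 and 0.513 FPKM in control and at 0.0770, 0.0529 and 0.0882 FPKM in CYT libraries, a fall of 2.98 (log2, SE 0.45, adjusted p = 0.00186). DPH7 and DPH5 fell by 2.13 and 1.55 (adjusted p = 0.00511 and 0.00533). These 3 calls were kept in every alternative. The list went in both directions, since DPH3 (0.82) and DPH2 (0.61) had every CYT library above every control library. They were not called (adjusted p = 0.114 and 0.175), except with the correction for GC content and length, alone or with the block. DPH1 was at -0.21.
Of 13 genes of mTORC1 and eIF4F control, RPTOR, which encodes the subunit that binds mTORC1 substrates such as the 4E-BPs, fell by 2.0 (SE 0.36, adjusted p = 0.0036). It was at 8.92, 6.10 and 6.83 FPKM in control and at 2.30, 1.29 and 1.95 FPKM in CYT libraries. MLST8, another mTOR subunit gene, fell by 1.73 (adjusted p = 0.0245), and DEPTOR, the gene of an mTOR inhibitor, rose by 1.61 (adjusted p = 0.0271). MTOR itself was not called. The call of RPTOR was kept in every alternative. That of MLST8 was lost without control replicate 1, control replicate 3 or CYT replicate 3 (adjusted p up to 0.091), and that of DEPTOR was kept only without control replicate 1 or CYT replicate 2 when libraries were left out in turn (adjusted p up to 0.113). With the block, 4 genes of this list were lower and 2 higher, against 19.8% and 20.0% of all genes.
Of 8 genes of the eIF2 phosphatase and the stress output, 3 were lower and 2 higher, against 12.9% and 15.7% of all genes. ATF4, the transcription factor whose translation rises when eIF2 is phosphorylated, fell by 2.02 (SE 0.34, adjusted p = 0.00269), from 57.2 to 97.8 FPKM in control to 17.6 to 25.0 FPKM in CYT libraries. CHAC1 and TRIB3, known targets of this response, fell by 2.36 and 1.32 (adjusted p = 0.0175 and 0.0279). DDIT3 (CHOP) rose by 2.17 (SE 0.30, adjusted p = 0.00129) and ATF3 by 2.87 (SE 0.51, adjusted p = 0.00349), both stress-induced transcription factor genes. Members of this list therefore went in both directions. The calls of ATF4, DDIT3 and ATF3 were kept in every alternative. That of TRIB3 was lost without any of the 3 control libraries or CYT replicate 3 (adjusted p up to 0.0827), and that of CHAC1 without control replicate 1 or CYT replicate 3 (adjusted p up to 0.067).

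Of 7 tested release and recycling genes, 3 were lower, namely ABCE1 (-1.47), which encodes the ribosome-splitting ATPase, PELO (-1.08), a rescue factor, and GSPT1 (-0.81), the release factor eRF3, with adjusted p of 0.0247, 0.0226 and 0.049. Of all genes 12.9% were lower and 15.7% higher, and 19.8% and 20.0% with the block. ABCE1 lost its call without control replicate 2, CYT replicate 1 or CYT replicate 3, PELO without control replicate 1, control replicate 3, CYT replicate 1 or CYT replicate 3, and GSPT1 without any library but CYT replicate 2, with adjusted p of up to 0.0916, 0.0894 and 0.172. The call of GSPT1 was also lost under DESeq2 size factors, upper-quartile normalization, both changes of the filter, both limma fits, protein-coding genes only and the correction for GC content and length. With the block, 4 genes of this list were lower, with DENR (-0.71, adjusted p = 0.0349) added. The poly(A) binding list had 1 gene called of 6, PAIP2B, an inhibitor of the poly(A)-binding protein, which rose by 2.18 (adjusted p = 0.00264). None of the 3 initiation helicase genes or the 2 hypusine genes was called by edgeR, DESeq2 or limma on log2(FPKM + 1), and 0 of them had an unadjusted p under 0.05 in edgeR. DDX3X of the helicases was called without control replicate 2, and DOHH of the hypusine genes was called higher without CYT replicate 2. Of 10 mitochondrial translation factor genes, TSFM (-1.88) and MRRF (-1.19) were lower and MTRF1L (1.19) was higher, with adjusted p of 0.0086, 0.0364 and 0.0294, counts to be read against the same shares of all genes. The call of TSFM was kept in every alternative, that of MTRF1L was lost without any of the control libraries (adjusted p up to 0.114), and that of MRRF was lost without control replicate 1, control replicate 3, CYT replicate 1 or CYT replicate 3 (adjusted p up to 0.125). The call of MRRF was also lost under upper-quartile normalization, under a floor of 5 CPM on average and in both limma fits. With the block, 3 genes of this list were lower, with GUF1 (-0.80, adjusted p = 0.0246) added, and 1 higher.

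**Figure D5:**
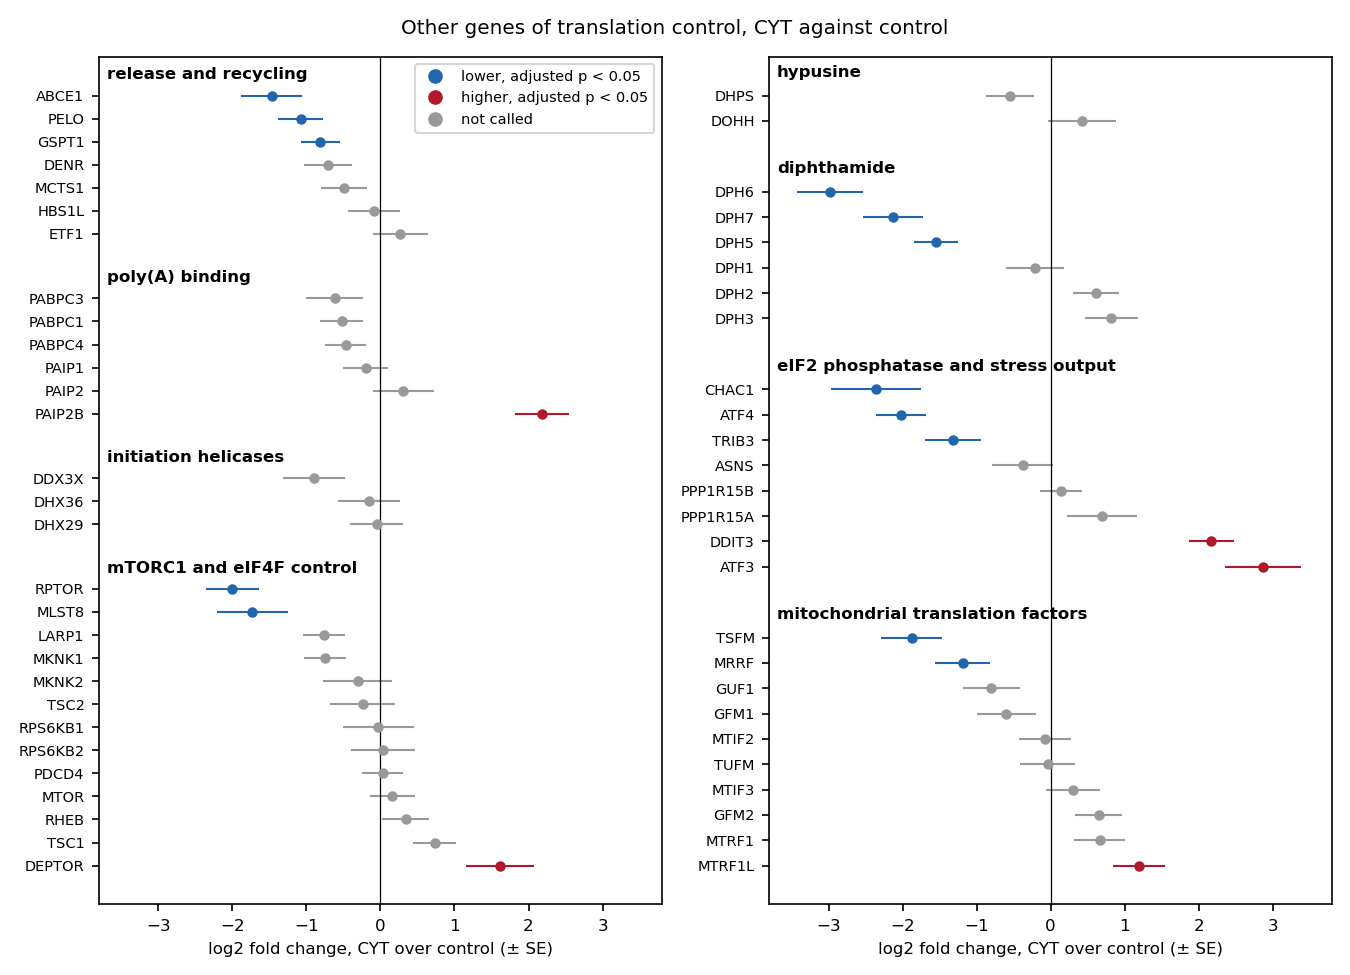
Log2 fold change of CYT over control (x axis, bars are ± 1 standard error) of the tested genes in 8 other lists of translation control. Blue marks genes called lower and red genes called higher. DPH6 lies lowest at -2.98 and ATF3 highest at 2.87.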

How the data were processed

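RNA of 3 control and 3 CYT-treated MDA-MB-231-DR samples was sequenced. The authors aligned clean reads with Hisat2 and deposited raw counts per gene and FPKM values (Stringtie is named for FPKM). The labels name hg38 and FastQC 0.12.1. How reads were counted, with or without strand and with several matches, is not given in the sources used here, so overlapping and duplicated genes are uncertain: 32 of the 69 genes share exon positions with a gene on the other strand. For 10160 genes the deposited FPKM is the count divided by the library total and a fixed length, to within 0.00209%.

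Counts were scaled by TMM and tested with edgeR 4.0.16 in R 4.3.3 (filterByExpr, minimum count 10, quasi-likelihood test, Benjamini-Hochberg adjustment over 15572 genes). Called means an adjusted p under 0.05, and ± after a log2 fold change is its standard error. Summed FPKM and ratios of FPKM were compared by the exact permutation test over libraries. FPKM levels of single genes are shown without a test of their own. The p-values beside them come from edgeR's test of the counts, unless another fit is named. The biological coefficient of variation was 37.5%. Replicates differed by more than sampling noise (chi-square per gene of at least 24.8). Depths are in the report. Scripts were tested on simulated data. The family of genes, the lists and the ratios were chosen for study with earlier results of these data known, although the rule for the family uses only symbol and gene type. By rule, EIF4E, EIF4A1, EEF2, the called members and both genes of each ratio are named with values in every library, other members may be named by their log2 fold change, and in other lists the called genes. Of those, DPH6 and RPTOR are given in every library. Levels of any other gene were added after its values were seen. Of 12 markers of blood, vessel, connective tissue and other cells, 8 had at most 3 counts in every control library and 4 in every CYT library. Their summed level was 2.76 to 6.20 FPKM in control and 1.45 to 3.83 FPKM in CYT libraries. Levels of a gene on the Y chromosome are not given.

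For replicates 1, 2 and 3, the deviation of a control library from its group mean correlated with that of the CYT library of the same number (0.188, 0.458 and 0.124 over all genes tested). All exceed 0.1, so the replicate number was used as a block in alternative fits. Control 1 with CYT 3 (0.303) and control 3 with CYT 1 (0.201) correlated more, though. Calls not said to be with the block, and the permutation tests, did not pair the libraries. The alternatives were DESeq2 size factors, upper-quartile normalization, DESeq2 1.42.0, no filter on counts, a minimum mean of 5 CPM, limma 3.58.1 on log2(FPKM + 1) and log2(FPKM + 0.1), the replicate block, protein-coding genes only, EIF3C with EIF3CL and EIF5A with EIF5AL1 summed, an offset for GC content and exonic length (GENCODE 29, mgcv 1.9.3) with and without the block, each library left out, and an absolute log2 fold change over 1. Adding pseudogene and read-through counts to their parent genes was chosen after seeing the data.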

Additional observations from a re-analysis of the deposited data

How the results depend on the processing

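Against the 12 translation factor genes called lower and 2 called higher, the replicate block gave 23 and 4, the correction for GC content and length 25 and 7, and both together 25 and 6. In the last of these fits 22.3% of all genes were called lower and 23.0% higher. Each limma fit, on log2(FPKM + 1) and on log2(FPKM + 0.1), called 1 gene higher, against 15.2% and 15.7% of all genes. Leaving out each library in turn gave 8 to 22 lower and 0 to 3 higher, with the most lower calls without CYT replicate 2 and the fewest without CYT replicate 1. In the fit without CYT replicate 2, 17% of all genes were called lower and 18.6% higher, and in the other fits that left out a library 7.36% to 10.2% and 10.3% to 13.1%. The other counts stayed within 1.5 times the reported ones. With the block all 14 calls were kept and 13 were gained, and for EIF4E, EIF4A2 and the other genes whose call it changed, its p stands in the report. The median log2 fold change of the family stayed below 0 in every alternative. It was -0.24 under upper-quartile normalization, where the median of all genes moved by over 0.1, from 0.01 to 0.16, and -0.47 without the filter, where more genes were tested and their median was 0.41. The causes were not tested. No called gene changed sign in any alternative. Among genes that were not called, some signs turned, also for genes further from 0 such as EEF1D, reported at -0.40. Upper-quartile normalization gave 0.06 for EEF1A1, 0.03 for EEF1E1, 0.14 for EIF2A, 0.12 for EIF2S3, 0.13 for EIF4E2 and 0.05 for EIF5AL1. With a mean of at least 5 CPM, EEF1A1 was at 0.01, EIF2A at 0.10, EIF2S3 at 0.07 and EIF4E2 at 0.08. With protein-coding genes only, EIF2A was at 0.06, EIF2S3 at 0.04 and EIF4E2 at 0.06. DESeq2 and DESeq2 size factors each gave 0.02 for EIF2A and 0.01 for EIF4E2, and both limma fits gave 0.00 for EIF2A. The correction for GC content and length gave -0.39 for EEF1AKMT1, 0.04 for EEF1D, 0.05 for EIF3B and 0.09 for EIF4E2, and with the replicate block -0.35, 0.05, 0.05 and 0.07, with EIF1B at -0.01. When each library was left out in turn, the log2 fold change ran from -0.63 to 0.14 for EEF1A1, -0.07 to 0.46 for EEF1AKMT1, -0.40 to 0.31 for EEF1E1, -1.24 to 0.03 for EIF1AX, -0.39 to 0.19 for EIF2A, -0.33 to 0.12 for EIF2S3, -0.73 to 0.13 for EIF4A1, -0.13 to 0.08 for EIF4E2, -0.05 to 0.29 for EIF4E3, -0.51 to 0.67 for EIF5, -0.34 to 0.08 for EIF5AL1 and -0.39 to 0.07 for EIF6. The log2 difference of EIF4G3 over EIF4G1 ran from -0.44 to 0.45. For the 4 ratios with groups apart it ran from -2.95 to -1.42 (EEF1A2 over EEF1A1), 2.11 to 3.19 (EIF4EBP2 over EIF4EBP1), 1.02 to 1.21 (EIF1B over EIF1) and 0.78 to 1.12 (EIF4E3 over EIF4E).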

Other observations

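The 139 genes of other types with EIF or EEF symbols were not among the 69 compared above. Of these, 26 passed the filter on low counts, with a median log2 fold change of -0.45, and edgeR's quasi-likelihood test called 2 lower and 1 higher, against 12.9% and 15.7% of all genes. Both lower genes were processed pseudogenes of EIF4B, whose parent gene was lower as well. EIF4BP7 fell by 1.26 on the log2 scale (adjusted p = 0.0113) and EIF4BP6 by 1.37 (adjusted p = 0.0248), and with all EIF4B pseudogenes added to it EIF4B fell by 1.70 (adjusted p = 0.00398). The gene called higher was EIF1B-AS1, the antisense neighbour of EIF1B. Its counts were 5, 4 and 2 in the control libraries and 39, 30 and 38 in the CYT libraries, with an adjusted p of 0.0019. EIF1B itself was not called, and the share of all antisense genes was higher in CYT libraries. The part of either in this value was not tested.

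NANOS1, which shares exon positions with EIF3A on the other strand, had 26, 26 and 33 counts in control and 184, 156 and 151 counts in CYT libraries, a log2 fold change of 2.75 that was called higher, while EIF3A was lower.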
